A study of Bos taurus with 20 samples.

Results

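The miRNAs described here are 10 that are known from blood and immune cells, taken by name from the 1029 mature bovine miRNAs counted in bull spermatozoa. Of these, 7 are leukocyte or inflammatory miRNAs (bta-miR-146a, bta-miR-146b, bta-miR-155, bta-miR-142-5p, bta-miR-142-3p, bta-miR-150 and bta-miR-223) and 3 are erythroid (bta-miR-451, bta-miR-144 and bta-miR-486). Small RNA libraries came from frozen-thawed semen of 20 mature Holstein-Friesian bulls, 10 of high fertility (HF) and 10 of low fertility (LF), with no treatment and with 1 library per bull. The fertility of a bull was its adjusted score from insemination records. Straws of several ejaculates of each bull were pooled, and the cells passed through a lysis buffer that removes somatic cells, in both groups alike. The age of single bulls and which of the AI centers a bull came from were not used here. Bulls are named by group and replicate number, such as HF12.

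A miRNA is a short RNA that guides an Argonaute protein to matching messenger RNAs and lowers their translation or stability. bta-miR-146a and bta-miR-146b have nearly the same mature sequence, and in innate immune cells they are induced by NF-kB and restrain that signal. miR-155 is induced in activated lymphocytes and macrophages, miR-150 marks mature lymphocytes, miR-223 marks granulocytes and monocytes, and the miR-142 hairpin, with its 5p and 3p arms, is expressed across blood cell lineages. miR-451 and miR-144 are made from neighbouring hairpins during red cell maturation, with miR-451 cut by AGO2 rather than by DICER, and miR-486 is abundant in red cells and also in muscle. In semen, leukocytes and red cells are somatic cells whose RNA can accompany that of the spermatozoa. Only names and levels of the miRNAs are given, since their mature sequences were not used here.

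Levels are given as normalized counts, the deposited unit. From the column totals these were taken to be reads of a miRNA divided by the library's reads and by a scaling factor close to 1 such as TMM gives (0.811 to 1.24), on the scale of CPM. The reads on miRNAs recovered from these values ranged from 103203 (HF17) to 3097585 (HF2) per library, with a median of 1092882.5, and LF11 (310183) and LF13 (438649) were the shallowest LF libraries. A miRNA at a floor of 3 reads had a normalized count of 1.19 in HF2 and of 27.6 in HF17, so values of the rare members in HF17 rest on a few reads. Floors and intervals describe counting error alone, because PCR can copy the same molecule many times. For the labelled cell type, 5 sperm and germ cell miRNAs were looked up (bta-miR-34b, bta-miR-34c, bta-miR-449a, bta-miR-449b and bta-miR-449c). All of them passed the filter on low values, and they made up 4.58% ± 0.947 (SD, n = 20) of a library. Their presence was not used to tell cell types apart. A list of 8 other leukocyte miRNAs, described below, held 5.55% ± 1.06. Nearly all of that was bta-miR-21-5p, also abundant in many other cell types, so these shares do not compare cell types. bta-miR-34c had rank 5 of all miRNAs.

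Together the 10 blood and immune cell miRNAs made up 0.561% ± 0.237 (SD, n = 20) of a library, and almost all of it was bta-miR-146a and bta-miR-146b. These 2 held 0.544% ± 0.232. The other 8 summed to 171 ± 76.8 CPM, here a library's share without the TMM factor. The 3 erythroid miRNAs alone summed to 41.2 ± 24.1 CPM, from 19.4 in HF10 to 102.6 in LF13. In bulk RNA, fewer cells of a type and less RNA per cell cannot be told apart.

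The leukocyte members differed widely in level. bta-miR-146a had rank 37 by mean level, at 3594 ± 1583 (SD, n = 20) normalized counts on 454 to 12353 reads per library. bta-miR-146b had rank 50, at 1817 ± 708 on 190 to 6183 reads. Because of their near-identical sequence, how reads were shared between these 2 is uncertain. bta-miR-142-5p came next, with rank 162 and 92.6 ± 59.0 normalized counts on 2 to 435 reads. The lymphocyte miRNA bta-miR-150 had rank 255 and 21.1 ± 15.5 normalized counts on 2 to 88 reads. bta-miR-155 had rank 306 and 10.5 ± 5.82 normalized counts, on no more than 22 reads in any library.

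The granulocyte and monocyte miRNA was close to 0. bta-miR-223 had rank 433 and 2.02 ± 1.84 normalized counts, with 43 reads in all 20 libraries together. It had at least 1 read in 16 libraries and at least 3 in 4 of them (HF12, LF5, LF7 and LF18). The 3p arm of miR-142 was equally rare, with rank 413, 2.60 ± 3.51 normalized counts and 60 reads in all, spread over 14 libraries.

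Of the erythroid members, bta-miR-486 had rank 246 at 22.9 ± 10.3 normalized counts (2 to 97 reads) and bta-miR-451 had rank 269 at 17.5 ± 14.3 (2 to 94 reads). bta-miR-144, the neighbour of bta-miR-451 in the genome, had only 6 reads in the whole data set. Those reads fell in HF2, HF12, HF15, LF5 and LF8, with at most 2 in a library, so bta-miR-144 was under the floor everywhere. Pooled over libraries, bta-miR-144 stood at 0.257 CPM (exact 95% Poisson interval 0.0943 to 0.559), against 16.2 for bta-miR-451 (14.6 to 18.0).

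**Figure D1:**
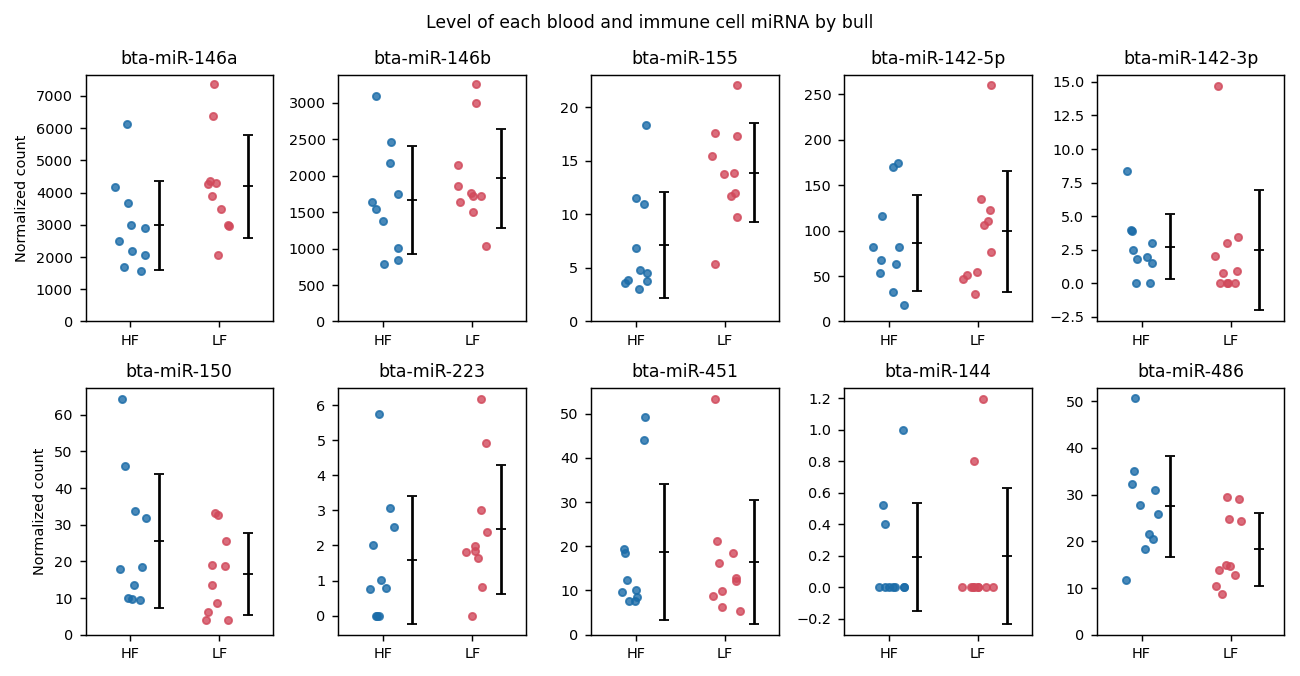
Normalized count of each of the 10 miRNAs (vertical axis, own linear scale for each) in the HF and LF bulls, 1 point per bull, with the mean ± SD of the 10 bulls of each group beside the points. bta-miR-146a reached 7373 in LF5, whereas bta-miR-144 was at 0 in 15 bulls, and the groups overlapped for every miRNA.

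Neighbours in the order of levels were compared within bulls, on log2(normalized count + 1), with a two-sided paired permutation test of 100000 sign flips and adjustment over the 9 pairs of neighbours. Of these, 3 did not differ beyond their spread: bta-miR-486 and bta-miR-150 (mean difference 0.32, higher in 12 of 20 bulls, p = 0.24, adjusted p = 0.31), bta-miR-150 and bta-miR-451 (0.22, 11 of 20, p = 0.36, adjusted p = 0.41), and bta-miR-142-3p and bta-miR-223 (0.036, 10 of 20, p = 0.92, adjusted p = 0.92). bta-miR-451 lay above bta-miR-155 by 0.59 in 13 of 20 bulls (permutation test, p = 0.021, adjusted p = 0.032). bta-miR-146a was higher than bta-miR-146b in all 20 bulls, and bta-miR-146b was higher than bta-miR-142-5p in all 20, both at p = 1e-05, the smallest this permutation test can give. The order of levels was itself taken from the means of these same bulls, and the adjustment does not cover that choice. The libraries do not correct for how well each sequence is captured, which differs between miRNAs.

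Most members varied between bulls by more than reads alone would give. The coefficient of variation of bta-miR-146a was 44.1% over the 20 bulls, where counting error gives 2.10%, and that of bta-miR-142-5p was 63.7% against 12.4%. For bta-miR-451 it was 81.6% against 30.8%, and for bta-miR-150 73.5% against 27.3%. In contrast, the spread of bta-miR-223 (90.9% against 91.6%) and of bta-miR-144 (194% against 245%) was no larger than counting error, and that of bta-miR-155 (55.4% against 41.7%) was only a little larger. With the groups taken into account, the biological coefficient of variation estimated by edgeR was 0.62 for bta-miR-451 and 0.79 for bta-miR-142-3p, where the median of the 435 miRNAs tested was 0.38, and 88.7% and 96.1% of those miRNAs had a lower one. bta-miR-146a (0.39), bta-miR-146b (0.39) and bta-miR-486 (0.38) lay at the median. For bta-miR-223 it was 0.57, where the trend at its level was 0.52, and 83.2% of the tested miRNAs had a lower one. For bta-miR-223 this estimate and the comparison with counting error thus differ.

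The comparison of HF with LF bulls asks whether the abundance of these miRNAs goes with fertility. The filter on low values dropped any miRNA that was below a normalized count of 1 in 10 or more bulls, and 435 miRNAs were kept, 9 of the 10 members among them. The study's thresholds were an unadjusted p under 0.05 and a fold change over 1.5, and by limma 9 of the 435 miRNAs (2.07%) passed both, 4 (0.92%) higher in HF and 5 (1.15%) lower. bta-miR-155 was the 1 member that passed both, and it was lower in HF. At an unadjusted p under 0.05 alone, 15 of the 435 (3.45%) and 3 of the 9 members passed. These 3 were bta-miR-155, bta-miR-146a and bta-miR-486, which the paper also describes as differing between its HF and LF bulls. The members were chosen with earlier results of these data known, so these shares are not a test of the list. After Benjamini-Hochberg adjustment, 0 miRNAs were under 0.05 by limma, by the edgeR likelihood ratio test (16 with an unadjusted p under 0.05) or by DESeq2 (18). By the likelihood ratio test 2 of the 9 members, bta-miR-155 and bta-miR-486, passed both thresholds, where 12 of all 435 (2.76%) did. Of the 9 members 4 were higher and 5 lower in HF, with a median log2 fold change of -0.22, where the median of all 435 was 0.0051.

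bta-miR-155 ranged from 3.07 to 18.4 normalized counts in HF (median 4.66) and from 5.37 to 22.1 in LF (median 13.8). Of the HF bulls, 9 of 10 were below the LF median, and the highest HF value, in HF17, rests on 2 reads. The lowest LF bull was LF5. Its log2 fold change was -0.998 (SE 0.31, 95% interval -1.63 to -0.37, limma p = 0.0033, adjusted p = 0.92), and by the edgeR likelihood ratio test it was -1.07 (p = 0.00058, adjusted p = 0.25). The direction and both thresholds were kept with each bull left out in turn (-1.16 to -0.91).

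The more abundant NF-kB feedback miRNAs were also lower in HF by their values. bta-miR-146a ranged from 1567 to 6142 in HF (median 2704) and from 2057 to 7373 in LF (median 4067), with 8 of 10 HF bulls below the LF median. The highest HF value was in HF15 and the highest LF values in LF5 and LF8. Its log2 fold change was -0.52 (SE 0.24, 95% interval -1.01 to -0.035, limma p = 0.037, adjusted p = 0.94), short of the fold threshold, which it passed without HF15 (-0.65), HF17 (-0.59) or LF11 (-0.63). Its p was under 0.05 in 10 of 20 limma fits with 1 bull left out and reached 0.081 without LF5, and it was 0.062 by the edgeR likelihood ratio test and 0.060 by the quasi-likelihood test, so the call depends on the bull and the test. bta-miR-146b, with 792 to 3098 in HF (median 1590) and 1041 to 3267 in LF (median 1744), had a log2 fold change of -0.30 (limma p = 0.23, adjusted p = 0.94), and the groups overlapped over nearly their whole range.

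Of the erythroid miRNAs, bta-miR-486 ranged from 11.6 to 50.7 in HF (median 26.8) and from 8.62 to 29.4 in LF (median 14.9). Here 9 of 10 HF bulls were above the LF median, HF10 being the exception. The log2 fold change was 0.57 (SE 0.27, 95% interval 0.015 to 1.13, limma p = 0.044, adjusted p = 0.94), just under the fold threshold at 1.49-fold. It passed both thresholds by the edgeR likelihood ratio test (0.65, p = 0.025, adjusted p = 0.93), by the quasi-likelihood test (0.64, p = 0.029) and by DESeq2 (0.62, p = 0.037, adjusted p = 0.98). With limma its p was above 0.05 with TMM undone (0.081), with DESeq2 size factors (0.061) and without the filter (0.051), and it was under 0.05 in 8 of 20 fits with 1 bull left out, reaching 0.096 without HF12. bta-miR-451 ranged from 7.56 to 49.1 in HF (median 11.2) and from 5.41 to 53.3 in LF (median 12.5), with a log2 fold change of 0.14 (95% interval -0.66 to 0.95, limma p = 0.72, adjusted p = 0.97) that turned to -0.044 without HF12 and -0.026 without HF15. The difference between the 2 fold changes was not tested. bta-miR-144 did not pass the filter, and fitted without it had 0.011 (limma, unadjusted p = 0.95) on 3 reads in each group, so no difference could be seen at this depth.

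For the remaining members no difference was detected. bta-miR-142-5p ranged from 18.4 (HF17, 2 reads) to 174 in HF and from 30.1 to 260 in LF, with a log2 fold change of -0.22 (95% interval -1.02 to 0.57). bta-miR-142-3p was at 0.46 (-0.58 to 1.5), bta-miR-150 at 0.63 (-0.23 to 1.5) and bta-miR-223 at -0.51 (-1.37 to 0.34), with limma adjusted p-values of 0.96, 0.94 and 0.94. These intervals each include a change of more than 1.5-fold in at least 1 direction, so the depth and spread do not show that HF and LF are alike.

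**Figure D2:**
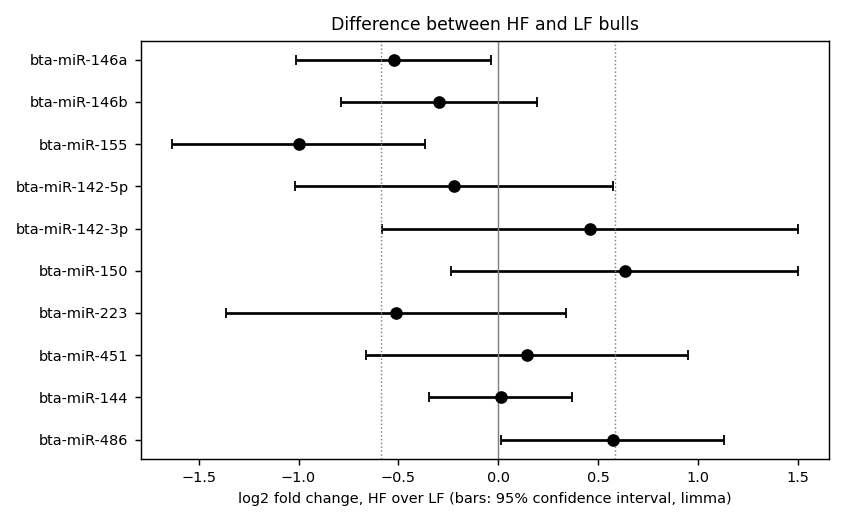
Log2 fold change of HF over LF (horizontal axis) for each of the 10 miRNAs, with its 95% confidence interval from limma on 20 bulls. The solid line marks no change and the dotted lines a 1.5-fold change. The interval of bta-miR-155 runs from -1.63 to -0.37, and 7 of the 10 intervals include 0. bta-miR-144 was fitted without the filter.

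Other marker lists showed few differences between the groups. Of 8 other leukocyte miRNAs 6 were tested, 2 with a higher and 4 with a lower value in HF, and 0 had a limma p under 0.05 (smallest p = 0.21). bta-miR-21-5p, also abundant in many other cell types, was the most abundant of them at 54410 ± 10445 normalized counts. Of 8 other miRNAs abundant in red cells all were tested, 2 with a higher and 6 with a lower value, again with 0 under 0.05 (smallest p = 0.093). The share of these lists was 5.55% ± 1.06 and 3.97% ± 0.606 of a library, against 0.561% ± 0.237 for the members. Nearly all of the first share was bta-miR-21-5p, and the next in that list, bta-miR-132, had 720 ± 225 normalized counts. Most of the second share was bta-miR-22-3p, bta-miR-16b and bta-miR-25 (means of 17938, 9991 and 6434 normalized counts). These shares therefore describe a few abundant miRNAs and not the lists as a whole. In the epithelial list 6 of 7 miRNAs had lower values in HF, where 217 of all 435 tested miRNAs had lower and 218 higher values. Of this list bta-miR-429 (log2 fold change -0.47, limma p = 0.014, adjusted p = 0.94) and bta-miR-200a (-0.28, limma p = 0.040, adjusted p = 0.94) were under 0.05, with 0 past both thresholds. The most abundant of the list, bta-miR-375 at 10608 ± 1986 normalized counts, was the 1 with a higher value in HF (0.17, limma p = 0.22, adjusted p = 0.94). In the muscle list 4 of 6 miRNAs were tested, all 4 with higher values in HF, with log2 fold changes from 0.27 to 0.45 and limma p-values from 0.18 to 0.63. The muscle list made up 0.0126% to 0.154% of HF libraries and 0.0102% to 0.214% of LF libraries. Both endothelial miRNAs had higher values in HF (smallest p = 0.48), as had all 5 sperm and germ cell miRNAs (smallest p = 0.11). The part of such cells in the values of the members was not tested.

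Whether the members rose and fell together from bull to bull was examined with the 45 pairs that 10 miRNAs make, on log2(normalized count + 1), with two-sided permutation tests of 100000 resamples and adjustment over the 45. By Pearson's r, 3 pairs had an adjusted p under 0.05, by Spearman's rho 2, and 10 had an unadjusted p under 0.05 by Pearson's r. Among the 9 members that passed the filter, 3 of 36 pairs (8.33%) reached an r of 0.5, where 6.25% of all 94395 pairs of tested miRNAs did, and the median r was 0.24 against 0.017 for all pairs.

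bta-miR-146a and bta-miR-146b moved together most closely. Their sequences are nearly the same, and the part that the sharing of reads between them had in this correlation was not tested. Their r was 0.90 and rho 0.89 (permutation p = 1e-05 for both, the smallest possible, adjusted p = 0.00045 and 0.00022), with 0.89 within HF, 0.94 within LF and 0.86 without the 2 bulls farthest from the median. The ratio of their reads ran from 1.21 in HF2 to 2.49 in LF18, with a pooled value of 1.88. On the log2 scale its SD was 0.27, where counting gives 0.055.

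The other 2 pairs were bta-miR-146a and bta-miR-146b, each with bta-miR-144. They had an r of 0.68 (rho 0.58, permutation p = 0.00082 and 0.0084, adjusted p = 0.012 and 0.071, 0.59 without the 2 farthest bulls) and of 0.75 (rho 0.76, permutation p = 0.00014 and 1e-05, adjusted p = 0.0031 and 0.00022, 0.83 without them). Within HF they were 0.75 and 0.79, and within LF 0.79 and 0.82. Both rest on the 6 reads of bta-miR-144, and the first lost its call without HF15, LF5 or LF8 (0.58 to 0.62). The 5 bulls with a read of bta-miR-144 include LF5, LF8 and HF15, the 3 bulls with most bta-miR-146a.

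Among the erythroid miRNAs no correlation passed the adjusted test. Of their 3 pairs 0 were called by Pearson's r or Spearman's rho, and 1 had an unadjusted p under 0.05. bta-miR-451 and bta-miR-486 had an r of 0.45 and a rho of 0.36 (permutation p = 0.046 and 0.12, adjusted p = 0.20 and 0.30), with 0.62 within HF and 0.32 within LF. Without HF12 and LF13, which were also the 2 bulls farthest from the median of bta-miR-451, r fell to 0.22, so the relation rests on those bulls. Their read ratio ran from 0.222 in LF1 to 1.81 in LF13, with an SD of 0.89 on the log2 scale, where counting gives 0.62. bta-miR-451 and its neighbour bta-miR-144 had an r of 0.32 and a rho of 0.23 (permutation p = 0.17 and 0.33, adjusted p = 0.40 and 0.55, 0.38 without the 2 farthest bulls), with 0.73 within HF and -0.050 within LF. bta-miR-144 and bta-miR-486 had 0.040 and 0.095 (permutation p = 0.87 and 0.69, adjusted p = 0.91 and 0.78, 0.0033 without the 2 farthest bulls), with 0.50 within HF and -0.33 within LF. The pooled ratio of bta-miR-451 to bta-miR-144 was 63.2 (exact 95% interval 28.8 to 173).

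Of the 21 pairs of leukocyte miRNAs, the miR-146 pair was the 1 called. The arms of miR-142, which come from the same hairpin, had an r of 0.47 and a rho of 0.44 (permutation p = 0.038 and 0.056, adjusted p = 0.20 and 0.25, 0.38 without the 2 farthest bulls), with 0.72 within HF and 0.34 within LF. Their pooled ratio of 5p to 3p reads was 39.4 (exact 95% interval 30.5 to 51.8), and it ran from 7.25 in LF13 to 168 in LF8 over the 14 libraries with a 3p read. Its SD on the log2 scale was 1.26, where counting gives 0.92. bta-miR-223 had an r of -0.030 with bta-miR-142-5p (rho -0.13, permutation p = 0.90 and 0.58, adjusted p = 0.92 and 0.75) and of -0.42 with bta-miR-150 (rho -0.40, permutation p = 0.064 and 0.084, adjusted p = 0.23 and 0.29). The latter became -0.66 (adjusted p = 0.036) without HF12 and LF13, a choice made after seeing the data. bta-miR-142-5p over bta-miR-150 ran from 0.286 in HF17, on 2 and 7 reads, to 13.75 in LF4, with an SD of 1.26 on the log2 scale against 0.55 from counting.

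bta-miR-142-5p was also set beside the miR-146 pair. bta-miR-146a and bta-miR-142-5p had an r of 0.45 and a rho of 0.49 over all bulls (permutation p = 0.046 and 0.028, adjusted p = 0.20 and 0.18, 0.30 without the 2 farthest bulls), with 0.11 within HF and 0.87 within LF, where it was called among LF bulls alone. bta-miR-146b and bta-miR-142-5p had 0.51 and 0.58 (permutation p = 0.021 and 0.0079, adjusted p = 0.16 and 0.071, 0.59 without the 2 farthest bulls), with 0.31 within HF and 0.79 within LF. The differences between the groups were not tested. Without HF17, the shallowest library, bta-miR-146a with bta-miR-142-5p was at 0.60 (adjusted p = 0.044), and bta-miR-146b with bta-miR-142-5p, bta-miR-142-5p with bta-miR-150 and bta-miR-142-5p with bta-miR-144 were called too (0.61, 0.60 and 0.63).

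**Figure D3:**
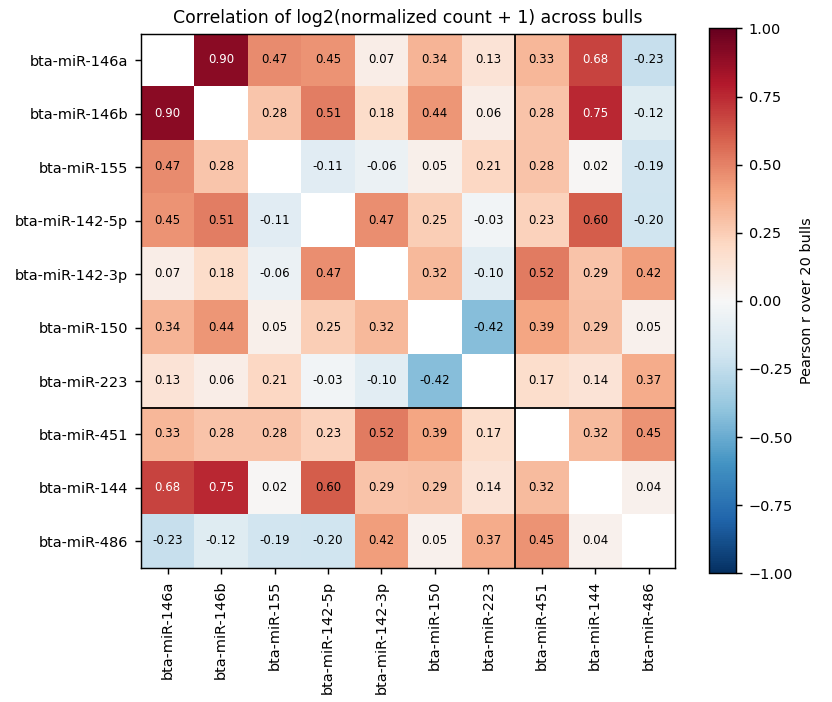
Pearson's r over 20 bulls for each pair of the 10 miRNAs, on log2(normalized count + 1), with red for positive and blue for negative values. Black lines separate the 7 leukocyte from the 3 erythroid miRNAs. The pair bta-miR-146a and bta-miR-146b stands at 0.90, and bta-miR-451 and bta-miR-486 at 0.45.

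**Figure D4:**
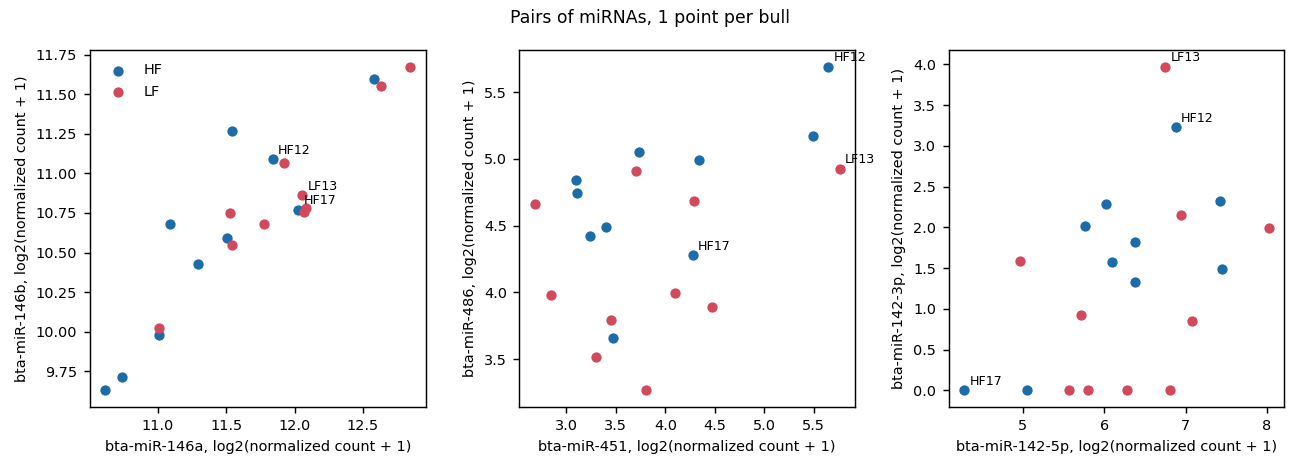
Levels of 3 pairs of miRNAs, 1 point per bull, on log2(normalized count + 1) on both axes, with HF in blue and LF in red. bta-miR-146a and bta-miR-146b lie along a line (r = 0.90), bta-miR-451 and bta-miR-486 spread widely (0.45), with HF12 and LF13 at high bta-miR-451, and several bulls have a bta-miR-142-3p level of 0.

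A few bulls were high for several members at a time. HF12 was among the 5 highest bulls for 6 of the 9 members that passed the filter, and HF15 for 6 as well, where they were among the 5 highest for 22.8% and 26.0% of all tested miRNAs. LF13 was among the 5 highest for 5 members (28.7% of all tested miRNAs) and the highest for 3 (bta-miR-155, bta-miR-142-3p and bta-miR-451), and was the highest for 10.3% of all tested miRNAs. LF5 was the highest for 3, bta-miR-146a, bta-miR-146b and bta-miR-142-5p, and for 5.52% of all tested miRNAs. HF3, HF10, HF14, LF1 and LF4 were among the 5 highest for 0 members, and for 17.2%, 26.7%, 29.7%, 27.6% and 23.0% of all tested miRNAs. The erythroid sum was highest in LF13 (102.6 CPM), HF12 (95.8) and HF15 (77.6). Of the 3 bulls highest in bta-miR-146a, HF15 was thus high in both, whereas the erythroid sum was 32.9 CPM in LF5 and 19.9 in LF8.

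**Figure D5:**
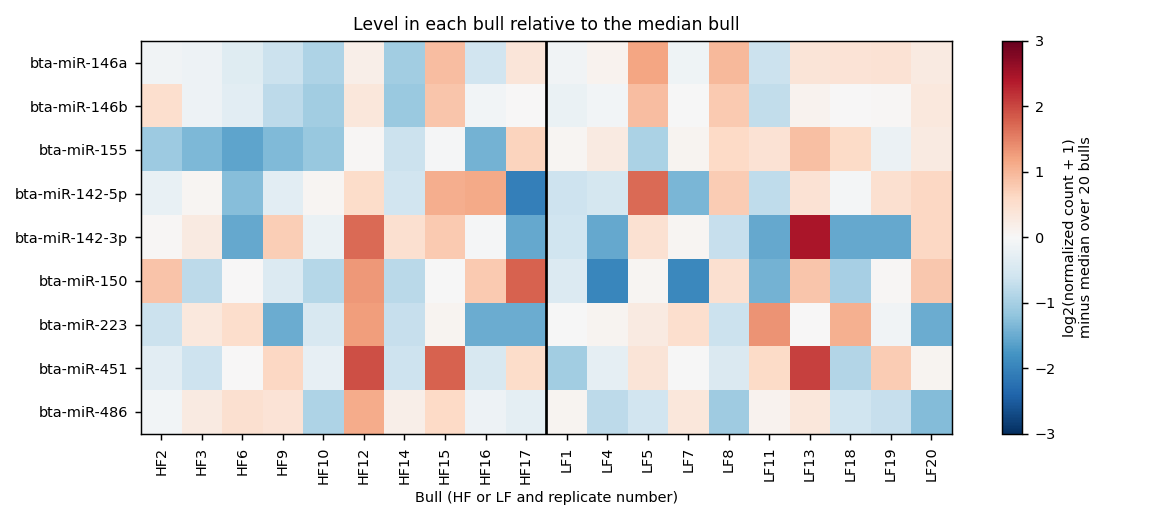
Level of the 9 miRNAs that passed the filter (rows) in each of the 20 bulls (columns), as log2(normalized count + 1) minus the median over the bulls, red above and blue below the median. A black line divides HF from LF bulls. HF12 is above the median in all 9 rows, and LF13 is darkest for bta-miR-142-3p and bta-miR-451.

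The sums of the members were set beside the sums of the other lists as a description, with no test, over the 20 bulls. All sums of a bull come from the same library and so have the same depth. The erythroid sum had an r of 0.21 with the sum of the 5 leukocyte miRNAs other than the miR-146 pair (rho 0.036, 0.40 within HF, 0.13 within LF, -0.089 without the 2 bulls farthest from the median erythroid sum, 0.31 without the 2 farthest from the median leukocyte sum) and of 0.17 with the miR-146 pair (rho 0.0030, 0.64 within HF, -0.058 within LF). The sum of those 5 leukocyte miRNAs had an r of 0.67 with the miR-146 pair (rho 0.66). It had 0.64 with the sperm and germ cell list (rho 0.71, 0.61 within HF, 0.74 within LF). With the other leukocyte list, nearly all of it bta-miR-21-5p, it had 0.071, and with the other red cell list -0.15. On average most of this sum was bta-miR-142-5p, with 0.00927% of a library against 0.0129% for the sum. These values therefore describe mainly that 1 miRNA, which also had the strongest relation with library depth among the members (r = 0.57, not past adjustment). The erythroid sum had 0.16 with the other red cell list and 0.33 with the endothelial list. The paper reports that RT-PCR on the sperm RNA gave no product for PTPRC (leukocytes), CDH1 (epithelial cells) or KIT (germ cells). It names no red cell marker among these checks. Whether blood cells carried over with the spermatozoa had a part in the miRNA levels was not tested here. The number of libraries with at least 3 reads depends on level and depth, and it differed between members. bta-miR-144 and bta-miR-223 had fewer than 3 reads in 20 and in 16 of the 20 libraries. bta-miR-451, bta-miR-486, bta-miR-142-5p and bta-miR-150 each had at least 3 reads in 19 libraries. For bta-miR-155 it was 17 libraries, for bta-miR-142-3p 9, and for bta-miR-146a and bta-miR-146b all 20.

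For 0 of the 10 members did a relation with library depth pass adjustment. The strongest relation was that of bta-miR-142-5p, which had an r of 0.57 and a rho of 0.53 with the log2 of the library's reads (permutation p = 0.0075 and 0.017, adjusted over the 10 members 0.075 and 0.17), which was 0.28 without the 2 libraries farthest from the median depth. bta-miR-144, whose 6 reads fell in 5 libraries, had an r of 0.36 and a rho of 0.47 (permutation p = 0.12 and 0.037, adjusted p = 0.385 and 0.19, 0.37 without those 2 libraries). For the other 8 members the adjusted p was at least 0.385 for r and at least 0.42 for rho.

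The miRNAs whose course over the 20 bulls was most like that of 3 members were looked up by Spearman's rho among 299 miRNAs with a median of at least 10 reads, with no test, since they were chosen for likeness. For bta-miR-146a they were bta-miR-28 (rho 0.69), bta-miR-20a (0.69) and bta-miR-30f (0.69). For bta-miR-451 they were bta-miR-105b (0.68), bta-miR-328 (0.59) and bta-miR-24 (0.59). For bta-miR-223 they were bta-miR-2285n (0.53), bta-let-7b (0.52) and bta-miR-11987 (0.51).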

How the data were processed

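Small RNA of spermatozoa was measured in 20 bulls, 1 library each, grouped into 10 HF and 10 LF by the labels. The authors trimmed adapters with Cutadapt, selected reads by length, discarded those of rRNA, tRNA, snRNA and snoRNA, mapped what remained with Bowtie (ARS-UCD1.2 assembly plus a Y chromosome) and counted mature miRBase miRNAs with miRDeep2. The deposited table is named as counts, but its values are a normalized signal. That counts were divided by library size and a TMM factor was inferred from the column totals. TMM undone means that each column was divided by its own total. No column was left without a sample, and no 2 libraries were identical.

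What 1 read is worth in a library was read from its most frequent low value. Of the values above 0, 95.0% came out whole within 0.01 reads, and all values of the members did. The library totals were 103203 to 3097585 reads, which limits the precision for rare miRNAs. The main test was limma 3.58.1 (R 4.3.3), with a variance trend, on log2(normalized count + 1), HF over LF, no covariates, with Benjamini-Hochberg adjustment. Recovered reads were tested with edgeR 4.0.16 (12 miRNAs past both thresholds by the likelihood ratio test, 13 by the quasi-likelihood test) and DESeq2 1.42.0. Permutation tests used numpy 2.4.6 and scipy 1.17.1. The tests were tested on simulated data. Each library is a different bull, so p-values measure the spread between bulls, technical spread included.

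The members and marker lists were chosen with earlier results of these data known. Named are the 10 members, the 3 miRNAs most alike to each of 3 members, and at most 3 miRNAs of a marker list, by mean level. bta-miR-429 was named after its values were seen, as were the sperm and germ cell miRNAs beyond 3. Gene neighbours come from the ARS-UCD2.0 annotation, whose coordinates were not used. Alternatives for test, scaling, pseudocount, filter and bulls were tried.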

Additional observations from a re-analysis of the deposited data

Results flagged for a closer look

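Within the HF and LF groups of 10 bulls, 6 of 20 groups held a bull whose gap to the next one was a larger share of the whole range than Dixon's 95% critical value for 10 samples. That value flags about 1 in 20 groups only where values are normally distributed and groups are independent. Here the counts were on a linear scale, some with many zeros, and the same bulls recur for each miRNA. The number of flags is therefore a description and not an excess over chance. LF5 had 259.6 normalized counts of bta-miR-142-5p on 435 reads, with the next LF bull at 134.6 (gap 0.545 of the range). HF12 had 8.36 normalized counts of bta-miR-142-3p on 16 reads, with the next HF bull at 4.00 (0.522), and LF13 had 14.7 on 8 reads, with the next LF bull at 3.45 (0.766). For bta-miR-223, HF12 stood at 5.75 on 11 reads, with the next HF bull at 3.07 (0.467). For bta-miR-451, LF13 stood at 53.3 on 29 reads, with the next LF bull at 21.2 (0.671). The value of 1.00 of bta-miR-144 in HF15 (0.477) is a single read. HF12 and LF13 account for 4 of the 6.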

How the results depend on the processing

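The miRNAs past both thresholds numbered 9, and 4 with a pseudocount of 5, 15 of 731 without the filter, 5 of 313 with at least 10 reads in 10 libraries, and 7 to 15 with 1 bull left out (14 to 15 without HF6, LF1, LF11 or LF13). Of the members 1 passed, and 2 with the quasi-likelihood test, the likelihood ratio test, DESeq2, TMM undone or a pseudocount of 0.5, 3 without the shallowest library of each group, and 1 to 3 with 1 bull left out. bta-miR-155 was among them each time. bta-miR-486 was added without HF2, HF10, HF16, HF17, LF1, LF7, LF11 or LF13, and bta-miR-146a without HF15, HF17 or LF11. With 1 bull left out, their p stayed under 0.05 in 8 and 10 of 20 fits. Correlated pairs numbered 3, and 5 with a pseudocount of 5, when centred on group means or without the shallowest libraries, 1 in HF bulls alone, and 2 to 7 with 1 bull left out (7 without HF17). The log2 fold change of bta-miR-451 reversed without HF12 (-0.044) or HF15 (-0.026), and with 1 bull left out ran from -0.044 to 0.36. That of bta-miR-144 reversed with TMM undone (-0.0031), a pseudocount of 5 (-0.00063) and without HF12 and LF13 together (-0.055), and ran from -0.077 to 0.11 with 1 bull left out. In all, 291 of 307 alternatives for the members' fold changes kept the direction. Except as the number of miRNAs tested or of bulls changed, the cause was not tested. TMM undone and DESeq2 size factors shifted the median over all tested miRNAs from 0.0051 to -0.051 and -0.017 (log2). No paired analysis was possible because the HF and LF bulls are different animals and no matching between them is given. Depth limits bta-miR-144, bta-miR-223 and bta-miR-142-3p most.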
